A study of Mus musculus with 21 samples.

Results

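The perinatal change of each microRNA (miRNA) from embryonic day 16 (E16) to the day of birth (P0) was compared between the 2 organs of the study, the cochlea and the superior olivary complex (SOC). The question was whether a miRNA changed by the same factor in both organs, and it was asked as an organ by time interaction. The difference in change is given throughout as the log2 fold change (P0 vs E16) in the SOC minus the log2 fold change in the cochlea, so a positive value means that the miRNA moved up more, or down less, in the SOC. A miRNA entered the test when it had a CPM (read count scaled to the library total) over 1 in at least 2 replicates of E16 or of P0 in each organ. Of 1647 listed miRNAs, 835 met this in cochlear and 652 in SOC libraries, and the 516 that met both were tested. The comparison used 14 of the 21 libraries of the series. These were 2 cochlear libraries at E16, 4 cochlear libraries at P0, 4 SOC libraries at E16 and 4 SOC libraries at P0.

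All animals were wild type (WT) and untreated. Cochlear samples held the sensory epithelium (SE) of several inner ears of C57BL/6JOlaHsd mice of both sexes, and SOC samples held the brainstem region of C57Bl6/J mice of both sexes. Organ, strain, RNA kit and library kit go together, since SE RNA came from the Direct-zol kit and SMARTer smRNA-Seq libraries, and SOC RNA came from the innuPrep kit and TruSeq Small RNA libraries. Levels were therefore not compared between organs, and the parts of organ, strain and kit in a difference in change cannot be told apart. The SOC region was cut on a cryostat from whole frozen heads at E16 but from brains already taken out of the skull at P0, and tissue of several animals was pooled in every SOC sample. In the SOC, age and this manner of sampling cannot be told apart.

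A miRNA is a short RNA that is cut from one of the arms of a hairpin precursor, named 5p or 3p. It guides the silencing machinery to messenger RNAs, mainly by pairing of its seed, bases 2 to 8, and many transcripts are held down by several miRNAs at once. In the auditory system the miR-183/96/182 cluster is best known, since it is strongly expressed in hair cells and in other sensory cells and mutations in the seed of miR-96 cause hearing loss. miR-124 and miR-9 are classical neuronal miRNAs, miR-200 and miR-205 mark epithelia, miR-206 marks skeletal muscle, miR-199a and miR-214 mark mesenchyme, and miR-140 and miR-455 mark cartilage. The SOC, the first brainstem station that combines input from both ears, is neuronal tissue, and epithelial, muscle or cartilage miRNAs are not typical of neurons.

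The sequences below are those of the miRNAs on which the comparison turned, read 5' to 3' from the RefSeq table (GRCm38.p6, the build also called mm10), with the seed in capitals. The first group had a lower change in the SOC than in the cochlea.
miR-205-5p: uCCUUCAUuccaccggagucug
miR-206-3p: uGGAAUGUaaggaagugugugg
miR-455-3p: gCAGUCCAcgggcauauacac
miR-214-3p: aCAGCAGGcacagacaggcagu
miR-200c-3p: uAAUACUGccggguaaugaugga
miR-182-5p: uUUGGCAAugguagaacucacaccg
miR-574-3p: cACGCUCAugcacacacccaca
miR-125a-5p: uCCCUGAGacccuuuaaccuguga
miR-351-5p: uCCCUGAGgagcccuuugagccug

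The second group had a higher change in the SOC, and it is shown because its bases differ from those of the first. As described further down, the share of G and C in the mature sequence ran from 23.8% in miR-369-3p to 47.6% in miR-1983 here, and from 43.5% in miR-200c-3p to 62.5% in miR-351-5p in the first group. These are chosen members, and the ranges do not hold for all calls. miR-188-5p (61.9%) and miR-324-5p (60.9%) were also called higher in the SOC. Over 60% GC, 2 of 92 miRNAs were called higher and 6 lower.
miR-369-3p: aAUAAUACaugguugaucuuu
miR-384-3p: aUUCCUAGaaauuguucacaau
miR-335-5p: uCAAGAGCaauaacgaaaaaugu
miR-9-3p: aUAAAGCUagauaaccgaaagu
miR-21a-5p: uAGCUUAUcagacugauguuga
miR-153-3p: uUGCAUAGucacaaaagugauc
miR-136-3p: aUCAUCGUcucaaaugagucuu
miR-18a-5p: uAAGGUGCaucuagugcagauag
miR-126a-3p: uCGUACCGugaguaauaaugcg
miR-1983: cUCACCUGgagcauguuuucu

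Among all called miRNAs with a sequence, the only seed held by more than 1 was CCCUGAG, shared by miR-125a-5p and miR-351-5p of the first group.

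Depth differed strongly between the organs. Cochlear libraries held 275971 to 447419 counts at E16 and 180671 to 207336 at P0, against 8915671 to 18053698 in the SOC. A single count was worth 2.45 to 3.08 normalized CPM (CPM taken on the library total times its TMM factor) in the cochlea at P0, and at most 0.219 in the SOC. A group was called at the floor when every library had 3 counts or fewer, and this held for the cochlea at P0 in 139 of the 516 miRNAs. The SOC libraries formed 2 sets, since the share of counts on miR-99b-5p was 17.2% to 19.6% in replicates 2 and 3 of both ages, and SOC P0 replicate 4 stood apart from the other SOC libraries of these ages (0.316% of counts on miR-191-5p, at least 3.84% in the others), a low share that 2 of the 3 SOC libraries of the third age, P16, also had (0.322% and 0.277%). In the SOC, the summed level of the neuronal miRNAs was 71755 to 225709 normalized CPM, with 2 of 29 listed members at 0 at E16 and none at P0. The cochlea held the hair cell cluster miR-183/96/182 at 15280 to 21922 normalized CPM and the epithelial miRNAs at 4179.8 to 9392. Both labelled tissues thus had their markers, but the SOC at E16 also held the hair cell cluster (142926 to 313878 normalized CPM) and epithelial, muscle, mesenchymal and cartilage miRNAs, described below.

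The organ difference was called for 83 of 516 miRNAs (16.1%) at a false discovery rate (FDR) under 0.05. The change was higher in the SOC for 54 (10.5%) and lower in the SOC for 29 (5.62%). Most of the 54 were miRNAs that moved in the cochlea alone. In 43 of them the miRNA fell in the cochlea without a call in the SOC, in 3 (miR-124-3p, miR-29b-3p and miR-101b-3p) it rose in the SOC and fell in the cochlea, in 4 it rose in the SOC only, and in 4 neither organ alone was called. The 29 were more evenly split. There were 14 that fell in the SOC only, 11 that rose in the cochlea only, 2 (miR-455-3p and miR-483-3p) that did both, and 2 called in neither organ alone. No called miRNA moved significantly in the same direction in both organs.

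For the same 516 miRNAs, the SOC contrast called 62 (12%), with 28 (5.43%) rising and 34 (6.59%) falling, and the cochlear contrast called 136 (26.4%), with 48 (9.3%) rising and 88 (17.1%) falling. On the log2 scale the SOC had a median change of 0.12 and the cochlea one of -0.36, which left a median difference of 0.41 over all tested miRNAs. When folds against a group at the floor were taken at the bound that 3 counts allow, and miRNAs at the floor at both ages of an organ were left out, this median was 0.11 over 463 miRNAs. Of the 54 miRNAs with a higher change in the SOC, 24 were at the floor in the cochlea at P0, so that their fitted folds have no upper limit. The plot of the change in one organ against the other shows the 2 called groups on either side of the line of equal change.

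**Figure D1:**
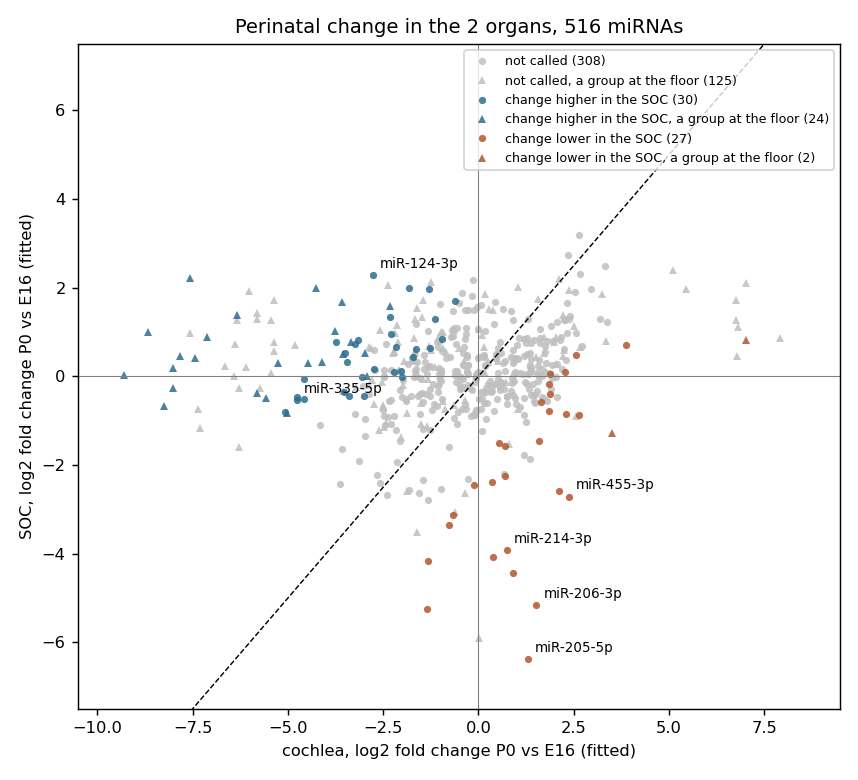
Fitted log2 fold change from E16 to P0 in the cochlea (x axis) and in the SOC (y axis) for each of the 516 tested miRNAs, with the dashed line at equal change and triangles for miRNAs with a group of libraries at 3 counts or fewer. The 54 miRNAs called higher in the SOC (blue) lie mostly at negative cochlear change and near 0 in the SOC, and the 29 called lower (orange) lie below the line.

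How many miRNAs were called, and in which direction, depended on the scaling and on single libraries. Library totals without TMM factors gave 164 calls (153 higher and 11 lower in the SOC, median difference 1.27), limma on quantile-normalized values gave 111 (54 and 57, median -0.06), and setting the median change of each organ to 0 gave 82 (37 and 45). A fit adjusted for GC content gave 46 calls among 453 miRNAs (10.2%), with 17 higher (3.75%) and 29 lower (6.4%). With the SOC replicate number as a block, which pairs E16 and P0 libraries, 125 miRNAs were called (70 and 55), including all 83. Without SOC P0 replicate 4 the count was 140 (81 and 59), and without cochlear E16 replicate 1 or 2 it was 37 (32 and 5) or 50 (45 and 5), where the single cochlear library left at E16 was assumed to vary like the other groups.

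**Figure D2:**
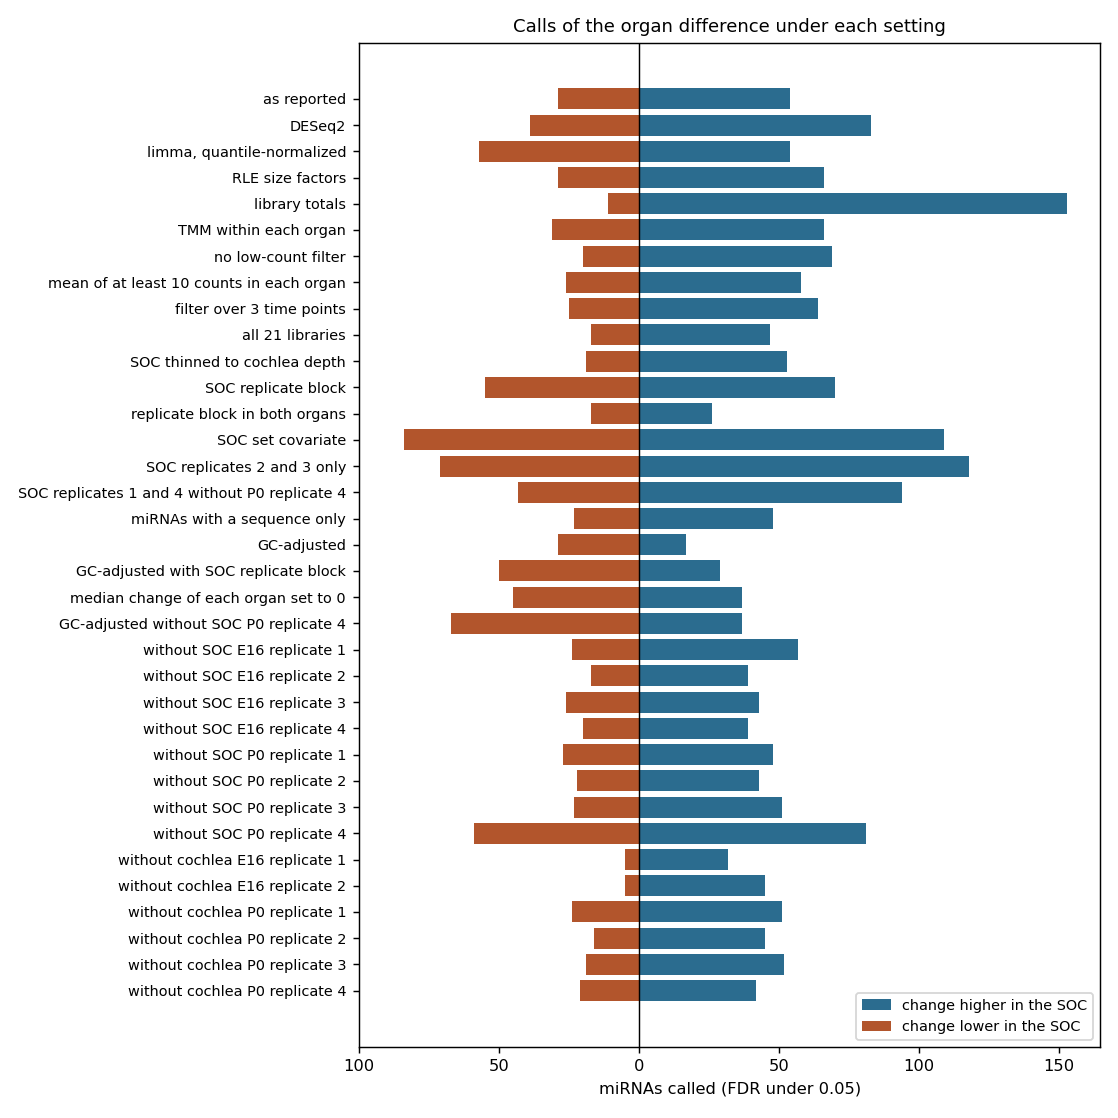
Number of miRNAs called for the organ difference under each setting (x axis, counts; blue to the right, change higher in the SOC; orange to the left, change lower in the SOC). The reported fit gave 54 and 29. By share of higher calls, the split ran from 153 against 11 with library totals to 37 against 67 with GC adjustment without SOC P0 replicate 4. Adjustment for GC content with all libraries gave 17 against 29.

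Several miRNAs of epithelium, muscle, cartilage and mesenchyme fell in the SOC between E16 and P0 and had no fall called in the cochlea. miR-205-5p, an epithelial miRNA (chr1:193507503-193507524, minus strand, in an exon of the long non-coding RNA 4631405K08Rik), had 2959.8, 1564, 617 and 645 normalized CPM in SOC E16 replicates 1 to 4 and 15.2, 14.02, 37.5 and 2.62 at P0. In the cochlea it had 96.3 and 72.6 at E16 and 221.6, 186, 222.1 and 195 at P0. The SOC libraries of the 2 ages did not overlap, and the cochlear P0 libraries were all above the E16 libraries. Over all 516 tested miRNAs, the 2 ages did not overlap for 62% in the cochlea and 14.9% in the SOC. Separation in the cochlea, with 2 libraries at E16, was thus the usual case. The log2 change was -6.38 ± 0.74 (SE) in the SOC and 1.29 ± 0.78 in the cochlea (FDR 0.203, not called), a difference of -7.67 ± 1.17 (FDR 0.00054).

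miR-206-3p, specific to skeletal muscle (chr1:20679055-20679076, plus strand), had 622, 287, 154 and 314 normalized CPM in the SOC at E16 and 8.18, 6.43, 9.26 and 14.6 at P0. The cochlear values were 14.6 and 28.0 at E16 and 25.5, 118, 30.8 and 71.6 at P0. Only the SOC libraries were separated by age, since 1 cochlear P0 library lay within the range of the E16 pair. The difference was -6.68 ± 0.96 (FDR 0.00054), with -5.16 ± 0.59 from the SOC (FDR 2.6e-05) and 1.52 ± 0.69 from the cochlea (FDR 0.105). The 14 listed muscle miRNAs summed to 228 to 871 normalized CPM in the SOC at E16 and to 21.9 to 66.9 at P0, with 3 of 14 at 0 at either age.

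miR-455-3p lies in an intron of the collagen gene Col27a1 (chr4:63256904-63256924, plus strand) and is known from cartilage. It had 125, 41.2, 47.4 and 84.2 normalized CPM in the SOC at E16 and 14.1, 5.94, 6.56 and 18.8 at P0, against 1746 and 1701 at E16 and 9512, 9931, 7807 and 8429 at P0 in the cochlea. The organs moved in opposite directions. No library overlapped between ages in either, which held for 62% of all tested miRNAs in the cochlea and 14.9% in the SOC. It fell in the SOC (-2.71 ± 0.46, FDR 0.000668) and rose in the cochlea (2.37 ± 0.60, FDR 0.00816), a difference of -5.09 ± 0.78 (FDR 0.00054). Its list, miR-140 and miR-455 with both arms, had 4 tested members, and all 4 fell in the SOC (6.59% of all tested miRNAs did). In the cochlea 1 rose and 1 fell (9.3% and 17.1% of all). Only miR-455-3p was called for the difference (16.1% of all). The summed level of these miRNAs was 1132 to 3174 normalized CPM in the SOC at E16 and 249 to 475 at P0.

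miR-214-3p is processed from the antisense transcript Dnm3os together with miR-199a, a pair known from mesenchyme (chr1:162223438-162223459, plus strand, in an exon of Dnm3os and opposite an intron of Dnm3). It had 2009, 1318, 884 and 3181 normalized CPM in the SOC at E16 and 35.7, 36.5, 60.4 and 355 at P0, with the last value, of replicate 4, far above the other P0 libraries. In the cochlea the values were 19257 and 15936 at E16 and 28099, 36705, 22996 and 30055 at P0. The difference was -4.67 ± 1.11 (FDR 0.00887) and -6.13 without SOC P0 replicate 4. Of 6 tested mesenchymal miRNAs, 3 were called lower in the SOC (5.62% of all tested miRNAs were). The other calls, miR-199a-5p (-3.89) and miR-214-5p (-2.84), are of the same transcript family. These 3 also fell in the SOC, and none of the 3 was called in the cochlea. The summed level of the list, dominated by other members, ranged from 26245 to 50937 normalized CPM in the SOC at E16 and from 24586 to 45241 at P0, so the list as a whole overlapped between ages.

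The epithelial miRNAs (miR-200 family, miR-203 and miR-205) gave the clearest group. All 8 tested members fell in the SOC (6.59% of all tested miRNAs did), and 2 of the 8 fell in the cochlea (17.1%). The difference was called for 3 (16.1% of all), miR-205-5p, miR-200c-3p and miR-200b-5p. miR-200c-3p (chr6:124718324-124718346, minus strand), which with its family restrains the loss of epithelial character, had 382, 523, 388 and 294 normalized CPM in the SOC at E16 and 7.75, 56.9, 16.8 and 12.9 at P0. Its cochlear values were 647 and 1297 at E16, where the replicates lay far apart, and 1222, 1324, 1262 and 1230.3 at P0. The difference was -4.45 ± 0.87 (FDR 0.00287). Over the 13 listed epithelial miRNAs the summed level was 1609 to 5060 normalized CPM in the SOC at E16 and 131 to 360 at P0, and in the cochlea 7210 to 9392 at E16 and 4180 to 5132 at P0. The median difference of the 8 was -2.42 and it stayed negative, between -1.50 and -3.48, under library totals, quantile normalization, DESeq2, the SOC replicate block, the SOC library sets, centring, GC adjustment and the omission of SOC P0 replicate 4. The fit with the SOC library sets also had a term for SOC P0 replicate 4 alone. The summed levels of epithelial, muscle, cartilage and hair cell miRNAs were all lower in the SOC at P0, and the part of tissue other than the SOC in the E16 samples was not tested. In bulk samples, fewer cells of a type and less RNA per cell cannot be told apart.

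miR-6715-5p had a difference of -5.34 ± 1.45 (FDR 0.0218). It is named after its values were seen, because it lies in an exon of Tectb (chr19:55192678-55192700, plus strand), the gene of a tectorial membrane protein of the cochlea. Its group means were 17.8 and 32.8 normalized CPM in the cochlea at E16 and P0, and 12.7 and 0.627 in the SOC. Reads of the host transcript and of the miRNA were not separated here.

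**Figure D3:**
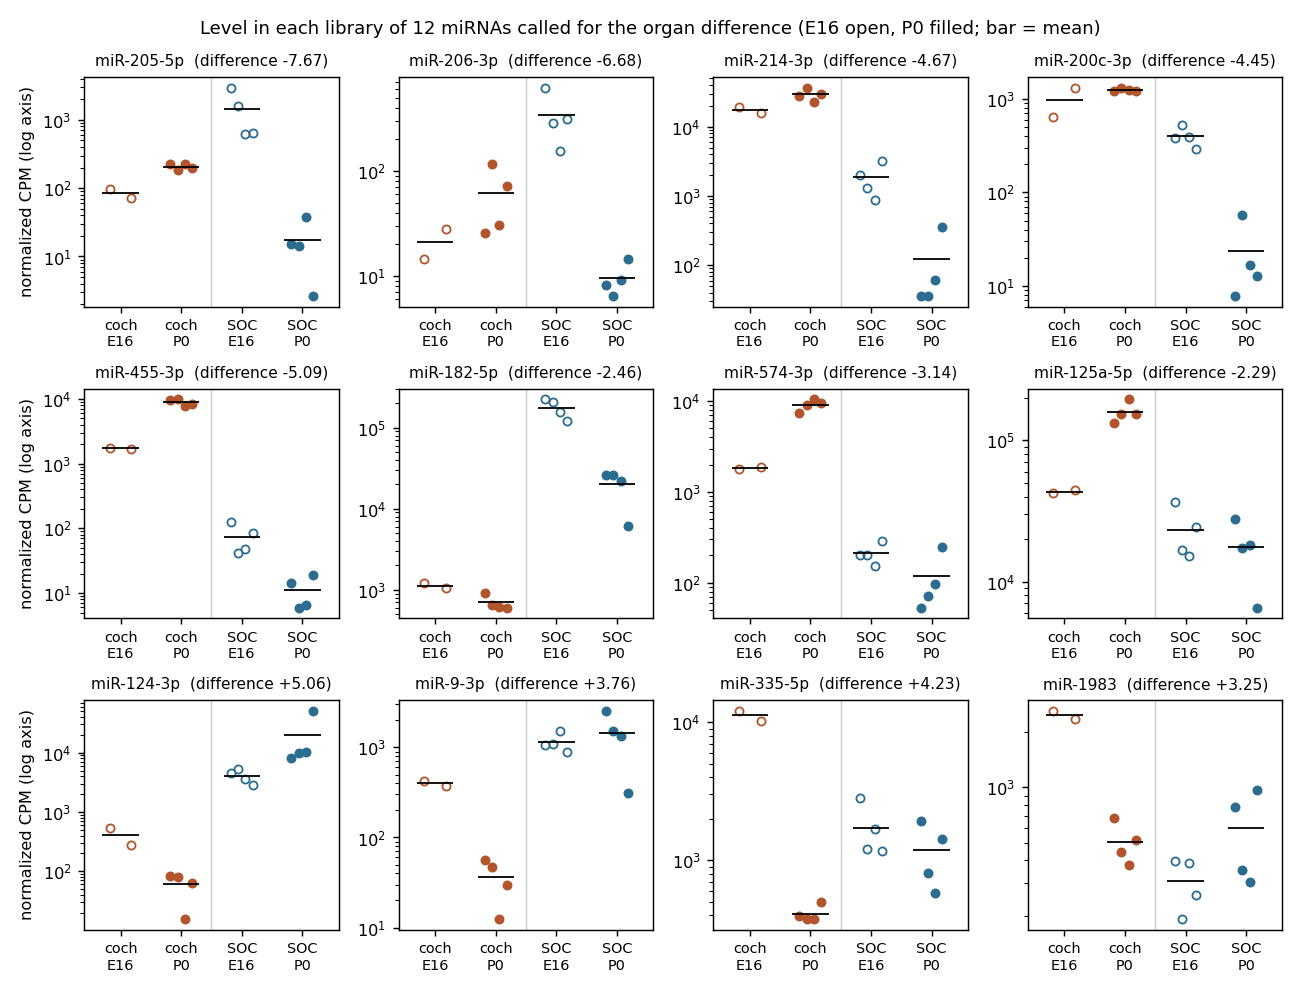
Level in each library (y axis, normalized CPM on a log axis) of 12 miRNAs called for the organ difference, in the cochlea (orange) and the SOC (blue) at E16 (open) and P0 (filled), with bars at the group means. In the top row the SOC libraries drop between ages and the cochlear libraries do not, in the middle row the cochlear libraries climb for miR-455-3p, miR-574-3p and miR-125a-5p, and in the bottom row they drop for miR-124-3p, miR-9-3p, miR-335-5p and miR-1983.

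The hair cell cluster miR-183/96/182 fell in the SOC. In the cochlea no change was called, though every arm named below was lower in all P0 libraries than in both E16 libraries. Its 3 hairpins lie within a few kilobases on the minus strand of chromosome 6 (chr6:30169711-30169732, minus strand for miR-183-5p, chr6:30169506-30169528, minus strand for miR-96-5p and chr6:30165962-30165986, minus strand for miR-182-5p), outside other annotated genes. miR-182-5p had 224703, 207972, 155462 and 120139.9 normalized CPM in the SOC at E16 and 26037, 26178, 22259.8 and 6079 at P0, with replicate 4 the lowest P0 library. The cochlear values were 1205 and 1041 at E16 and 927, 657, 617 and 603 at P0, a much smaller step that still left the ages apart. The SOC change was -3.14 ± 0.48 and the cochlear change -0.68 ± 0.53 (FDR 0.329), so that the difference was -2.46 ± 0.73 (FDR 0.0319). The call was kept in 9 of 14 fits without 1 library.

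Of the 5 tested arms of this cluster, 4 fell in the SOC (6.59% of all tested miRNAs did), and miR-182-5p and miR-183-3p were called for the difference. In the cochlea edgeR called 0 of the 5 (26.4% of all), with 1 at an unadjusted p under 0.05. miR-183-3p had 91.9, 48.1, 29.8 and 142 normalized CPM in the SOC at E16 and 10.7, 7.09, 7.70 and 4.81 at P0, against 278 and 304 at E16 and 166, 118, 185 and 215 at P0 in the cochlea, and its difference was -2.58 ± 0.74 (FDR 0.0262). The other arm of this hairpin, miR-183-5p, had a difference of -2.03 ± 1.06 (FDR 0.178). Its SOC levels followed the library sets, with 33031, 105429.9, 101768 and 22597 at E16 and 3928, 24899, 21893 and 2167 at P0. In the cochlea it had 20270 and 19409 at E16 and 17150, 16603, 17009 and 14427 at P0. With the SOC replicate block its difference was called (-2.40, FDR 0.00199). miR-96-5p fell in the SOC (-2.80 ± 0.67, FDR 0.0103), but with 45.9 and 29.3 normalized CPM at E16 and 15.3, 17.2, 9.25 and 17.3 at P0 its cochlear estimate also pointed down, at -1.33 ± 0.86 (FDR 0.235), and the difference of -1.47 ± 1.11 was not called (FDR 0.35). With library totals, neither arm kept its call and 0 of the 5 were called.

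The X-linked cluster of miR-322 and miR-503, whose miRNAs slow the cell cycle by targeting cyclins, showed shared falls with a gap for a pair of members. Of 9 tested members, 7 fell in the SOC (6.59% of all tested miRNAs did) and 5 fell in the cochlea (17.1%). miR-503-3p (chrX:53053987-53054008, minus strand) had 58.9, 47.2, 28.4 and 56.9 normalized CPM in the SOC at E16 and 9.98, 8.25, 10.3 and 6.34 at P0, whereas the cochlea had 131 and 131 at E16 and 129.9, 125, 114 and 119 at P0, a small step that still left the ages apart. The difference was -2.34 ± 0.57 (FDR 0.0105). miR-351-5p (chrX:53053315-53053338, minus strand), with 43889, 13069, 13624 and 18745 in the SOC at E16 and 8041, 3728, 3745 and 1573 at P0, differed by -2.75 ± 0.80 (FDR 0.029). The median difference of the 9 members was 0.43, and it changed sign with centring (-0.05) and GC adjustment (-0.62), so the list as a whole had no stable direction.

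A smaller set rose in the cochlea while no change was called in the SOC. The number of rises depended on the scaling. Over all tested miRNAs 48 rose in the cochlea in the reported fit, 17 with library totals and 113 with limma on quantile-normalized values. miR-125a-5p (chr17:17830817-17830840, plus strand, in an exon of Spaca6), which belongs with lin-4 of worms to an old family of developmental timers, was among the 5 miRNAs with the highest level by the smaller of the organ means. It had 42195 and 44282 normalized CPM in the cochlea at E16 and 132014, 154556, 196088 and 154311 at P0, and in the SOC 36470.1, 16744, 15198 and 24186 at E16 and 27799.9, 17403, 18137 and 6527 at P0. The cochlear libraries were fully separated, as for 62% of all tested miRNAs, and the SOC libraries overlapped. The difference was -2.29 ± 0.73 (FDR 0.0423). This call was kept in 13 of 20 alternatives, not with library totals, and in 4 of 14 fits without 1 library. The related miR-125b-5p also rose in the cochlea (2.15 ± 0.69, FDR 0.029), but its difference of -1.33 ± 0.82 was not called (FDR 0.238).

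Both arms of miR-574, in an intron of Fam114a1 (chr5:64970328-64970350, plus strand and chr5:64970364-64970385, plus strand), behaved alike. miR-574-3p had 1803 and 1896 normalized CPM in the cochlea at E16 and 7414, 9053, 10488 and 9437 at P0, and 204, 201, 154 and 287 at E16 and 53.1, 71.9, 97.6 and 250.1 at P0 in the SOC. miR-574-5p had 616 and 612 at E16 and 2858, 3994, 4683 and 3656 at P0 in the cochlea, and 131, 121, 95.1 and 218 at E16 and 28.4, 37.0, 38.9 and 205 at P0 in the SOC. In both arms the SOC libraries of P0 replicates 1 to 3 lay below all E16 libraries, and replicate 4 lay within the E16 range. The differences were -3.14 ± 0.73 (FDR 0.00795) and -3.50 ± 0.91 (FDR 0.0161).

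miR-423-5p (difference -2.20 ± 0.65, FDR 0.0297) and miR-193b-5p (-3.15 ± 1.04, FDR 0.0471) also rose in the cochlea alone. For miR-193b-5p the SOC held 0 to 4.45 normalized CPM in every library, and the call was lost in 12 of 14 fits that left out 1 library. The let-7 family promotes differentiation and counters proliferation. Of its 16 tested members, 4 rose and 1 fell in the cochlea (9.3% and 17.1% of all tested miRNAs did). In the SOC 2 rose (5.43%), and only let-7b-3p was called for the difference (16.1% of all). It had 157 and 113 normalized CPM in the cochlea at E16 and 519.6, 738, 1070.4 and 849.8 at P0, against 208, 128, 145 and 156 at E16 and 293, 223, 215 and 158 at P0 in the SOC, a difference of -2.08 ± 0.57 (FDR 0.024). The arm on the other side of the hairpin, let-7b-5p, rose in both organs, by 3.20 in the SOC (FDR 0.00604) and 2.64 in the cochlea (FDR 0.0383). In the SOC its level was only 3.21, 3.53, 1.91 and 2.04 normalized CPM at E16 and 9.98, 5.94, 5.70 and 78.3 at P0, with the last library far above the others, and the difference moved from 0.56 to -1.21 without it, neither called. The list median was -0.30, and it was 0.60 with library totals. With a covariate for the SOC library sets and a term for SOC P0 replicate 4 alone, it was -0.99 (6 called lower and 1 higher, against 84 and 109 of all 516). After GC adjustment it was -1.83 (4 called lower, against 6.4% of all in that fit).

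Neuronal miRNAs had the opposite pattern, a higher change in the SOC. miR-124-3p, the most abundant miRNA of mature neurons, had 4508, 5283, 3629.6 and 2863 normalized CPM in the SOC at E16 and 8090.2, 9971, 10103 and 51219.6 at P0. In the cochlea it had 547 and 278 at E16 and 81.5, 78.5, 15.4 and 64.2 at P0. Ages did not overlap in either organ, and the directions were opposite, with a rise of 2.29 ± 0.60 in the SOC (FDR 0.0174) and a cochlear change of -2.77 ± 0.70 (FDR 0.00816). No mature sequence was found for miR-124-3p, so the fits adjusted for GC content could not test it. The difference of 5.06 ± 0.92 (FDR 0.00197) kept its call in all 16 alternatives that could test it and in 14 of 14 fits without 1 library, and it was 3.97 without SOC P0 replicate 4, the library with the highest level.

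Of 23 tested neuronal miRNAs, 6 were called higher in the SOC (10.5% of all tested miRNAs were) and 0 lower. These were miR-124-3p, miR-9-3p, miR-7a-1-3p, miR-137-3p, miR-153-3p and miR-218-5p. In the SOC 5 of the 23 rose and 0 fell (5.43% and 6.59% of all tested miRNAs did). In the cochlea 2 rose and 6 fell (9.3% and 17.1% of all). miR-9-3p, the passenger arm of a miRNA of neural progenitors, had 420.0 and 375 normalized CPM in the cochlea at E16 and 56.0, 46.6, 12.3 and 29.6 at P0, while the SOC had 1071, 1103, 1522 and 893 at E16 and 2555, 1516, 1332 and 309 at P0. Its difference was 3.76 ± 0.81 (FDR 0.0048). miR-7a-1-3p, from an intron of Hnrnpk (chr13:58392800-58392821, minus strand), dropped in the cochlea from 1241 and 933 to 79.0, 66.2, 145 and 88.9 and differed by 3.17 ± 0.60 (FDR 0.00264).

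miR-153-3p, from an intron of the dense-core vesicle gene Ptprn2 (chr12:117250860-117250881, plus strand), had 89.6 and 111 normalized CPM in the cochlea at E16 and 5.09, 0, 0 and 4.94 at P0, at the floor. The cochlear level was at least 12.7-fold lower at P0 (bound from 3 counts per library), and in the SOC it was 1688, 569.7, 738 and 371 at E16 and 2304, 715, 554 and 609 at P0. Its fitted difference was 5.57 ± 1.08 (FDR 0.00287). The summed level of the neuronal list in the cochlea was 3084 and 3797 normalized CPM at E16 and 1027 to 1266 at P0, and the 2 ages did not overlap. The list median was 1.77, or 1.06 with bounded folds, and positive in the 8 other settings tried. It was lowest after GC adjustment at 0.49, where only miR-153-3p was called of 21 members with a sequence. Of all miRNAs in that fit, 3.75% were called higher.

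The imprinted miR-379/410 cluster on chromosome 12, expressed from the maternal allele and most active in brain, was the longest list. Of 51 tested members 15 were higher in the SOC (10.5% of all tested miRNAs were) and 2, miR-666-5p and miR-667-3p, lower (5.62%). In the cochlea 18 members fell (17.1% of all) and 3 rose (9.3%). In the SOC 1 rose and 0 fell (5.43% and 6.59% of all). miR-369-3p (chr12:109743466-109743486, plus strand, in an intron of Mirg) had 251 and 287 normalized CPM in the cochlea at E16 and 10.2, 14.7, 15.4 and 4.94 at P0, against 444, 460.5, 378 and 291 at E16 and 397, 356, 258 and 93.1 at P0 in the SOC. The difference was 4.07 ± 0.70 (FDR 0.0012), and 0.36 (FDR 0.735) after GC adjustment. miR-381-3p, a member with 29426, 14036, 11312 and 11916 normalized CPM in the SOC at E16 and 21928, 10649, 8934 and 1935 at P0, was near the floor in the cochlea (23.5 and 20.4 at E16 and 2.55, 4.90, 0 and 4.94 at P0) and was not called (2.13 ± 1.10, FDR 0.172).

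The median difference of the 51 was 1.72, or 0.77 with bounded folds. The 15 calls became 8 when the median change of each organ was set to 0, where 37 of all 516 were called higher. After GC adjustment 2 of the 47 members with a sequence were called higher. This was close to the 3.75% of all miRNAs in that fit. The neighbouring Rtl1-antisense and Meg3-side miRNAs had 3 calls higher in the SOC among 20 tested and 0 lower, where 10.5% and 5.62% of all tested miRNAs were. miR-136-3p, opposite an exon of Rtl1 (chr12:109595366-109595387, plus strand), led them with 85.1 and 86.6 normalized CPM in the cochlea at E16 and 2.55, 12.3, 3.08 and 17.3 at P0 and a difference of 3.99 ± 0.91 (FDR 0.00761).

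**Figure D4:**
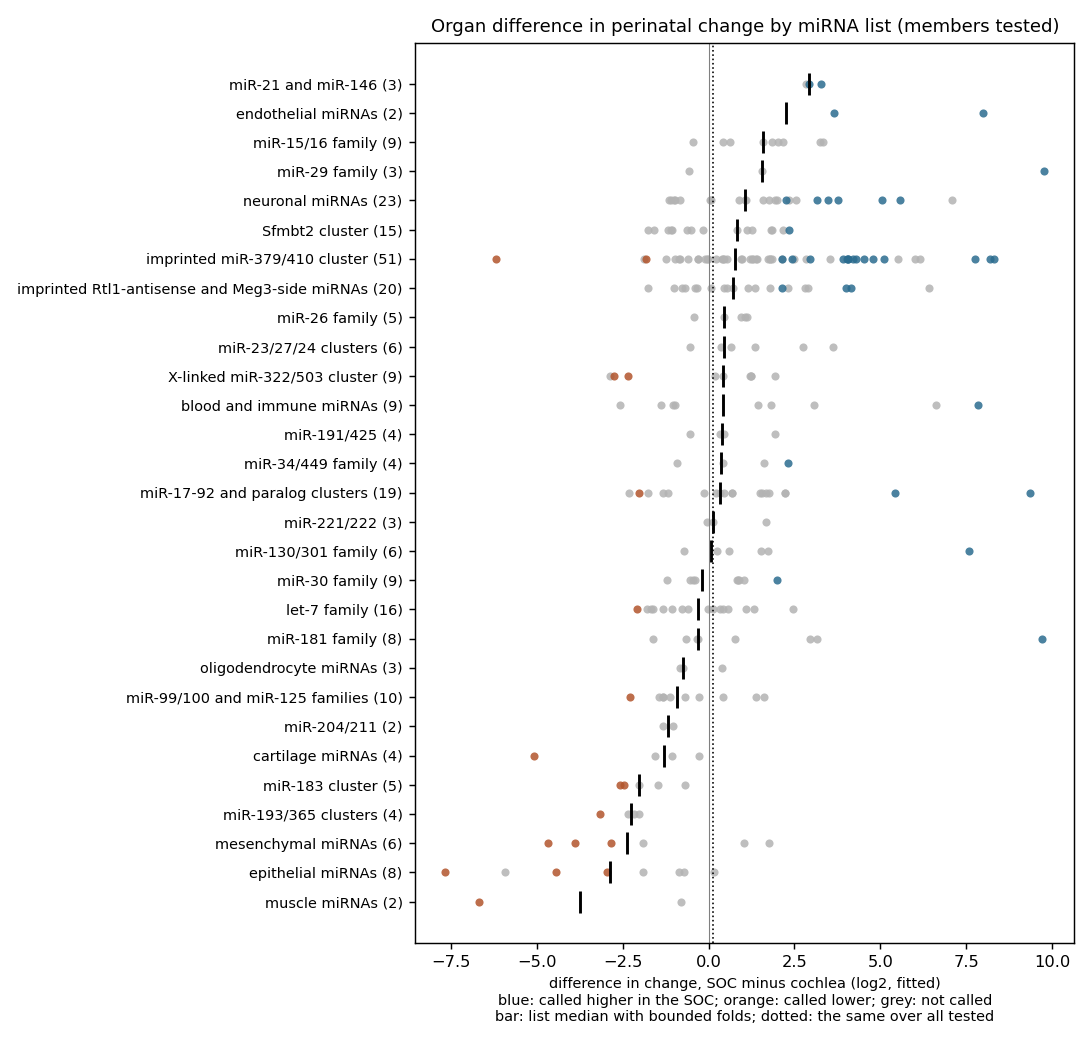
Difference in change (x axis, log2, SOC minus cochlea) of each tested member of the miRNA lists with at least 2 tested members, with the list median (with bounded folds) as a bar and the same median over all tested miRNAs, 0.11, as a dotted line. Blue and orange points were called higher and lower in the SOC, and grey points were not called. Muscle, epithelial and mesenchymal lists lie to the left, and the called members of the neuronal and imprinted lists lie to the right.

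Several other miRNAs fell in the cochlea with no call in the SOC. miR-335-5p, in an intron of the imprinted gene Mest (chr6:30741314-30741336, plus strand), had 12151 and 10292 normalized CPM in the cochlea at E16 and 392, 373, 373 and 502 at P0, and 2811, 1199, 1692 and 1170.0 at E16 and 1917, 805, 579.7 and 1421 at P0 in the SOC. The cochlear libraries of the 2 ages were far apart and the SOC libraries overlapped, and the difference was 4.23 ± 0.65 (FDR 0.00054). Both arms of miR-384, an X-linked brain miRNA, moved alike. miR-384-3p had 1170.4 and 866 in the cochlea at E16 and 25.5, 29.4, 55.5 and 59.3 at P0 (difference 4.52 ± 0.78, FDR 0.0012), and miR-384-5p had 262 and 264 at E16 and 43.3, 22.1, 12.3 and 39.5 at P0 (difference 3.97 ± 0.63, FDR 0.000728).

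miR-1983, listed on chromosome 13 (chr13:21896930-21896950, minus strand), had 2604 and 2339 normalized CPM in the cochlea at E16 and 683, 446, 376 and 514 at P0, and 397, 191, 389 and 259 at E16 and 776, 357, 305 and 963 at P0 in the SOC. Its difference of 3.25 ± 0.64 (FDR 0.00287) kept its call in all 20 alternatives, GC adjustment included (2.52, FDR 0.0118). miR-21a-5p, in an exon of Vmp1 (chr11:86584120-86584141, minus strand) and known from inflammation and growth, had 482 and 716 in the cochlea at E16 and 125, 73.6, 67.9 and 88.9 at P0 while the SOC stayed between 1264.5 and 4023. It differed by 2.92 ± 0.61 (FDR 0.00416).

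The endothelial miR-126a-3p, in an exon of Egfl7 (chr2:26591402-26591423, plus strand), had 2484 and 2302 normalized CPM in the cochlea at E16 and 680.0, 414, 355 and 474 at P0. In the SOC it had 3236, 1632, 1518 and 1647 at E16 and 3197, 1463, 1541 and 14064 at P0, where replicate 4 was far above all other libraries. The difference was 3.65 ± 0.91 (FDR 0.0122) with this library and 2.36 without it, both called. The blood miRNA miR-451a was at 0 in all 4 cochlear P0 libraries and at 4 and 9 counts at E16, so its fitted difference of 7.84 is no measure of size. The list of blood and immune miRNAs summed to 880.3 and 969.9 normalized CPM in the cochlea at E16 and to 1011 to 1533 at P0, so the summed level did not fall with it. The members taken singly went mostly down. Of 9 tested, 4 fell and 1 rose in the cochlea (17.1% and 9.3% of all tested miRNAs did), with a median change of -2.37.

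The miR-17-92 cluster and its paralogs drive proliferation. Of their 19 tested members, 2 fell in the SOC and 7 in the cochlea (6.59% and 17.1% of all tested miRNAs did). For the difference 3 were called, close to the 16.1% of all. miR-18a-5p (chr14:115043867-115043889, plus strand, in an exon of Mir17hg) had 29.1 and 46.5 normalized CPM in the cochlea at E16 and 2.55, 0, 0 and 0 at P0, at least 4.78-fold lower, and 134, 127, 189 and 45.5 at E16 and 48.8, 98.2, 90.5 and 144 at P0 in the SOC, with a fitted difference of 5.42 ± 1.15 (FDR 0.00476). The opposite arm, miR-18a-3p, was called in the other direction (-2.03 ± 0.64, FDR 0.0399), so the arms of 1 hairpin parted. miR-20a-5p fell in the cochlea from 417 and 646 to 153, 83.4, 70.9 and 64.2, and its difference of 1.75 ± 0.63 was just outside the threshold (FDR 0.0655).

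miR-34a-5p, a gene product induced by p53, rose in the SOC from 92.4, 134, 134 and 44.2 to 231, 446, 529 and 113 normalized CPM, while in the cochlea it had 72.8 and 70.7 at E16 and 58.6, 66.2, 33.9 and 29.6 at P0 (difference 2.31 ± 0.76, FDR 0.0468). Within each SOC library set the P0 libraries lay above the E16 libraries, while the ages overlapped across the sets, and the call was lost in 12 of 14 fits without 1 library. miR-30b-5p (2.00 ± 0.62, FDR 0.0389) and miR-467a-5p of the rodent Sfmbt2 cluster (2.33 ± 0.55, FDR 0.00799) fell in the cochlea with no call in the SOC. Of 15 tested Sfmbt2 members only miR-467a-5p fell in the cochlea and 0 rose (17.1% and 9.3% of all tested miRNAs did), with a median change of 0.51. The summed level of the 54 listed members in the cochlea was 1654 and 1776 normalized CPM at E16 and 4363 to 7181 at P0. The call of miR-30b-5p was kept in 6 of 14 fits without 1 library and was lost with the median change of each organ set to 0 (1.52, FDR 0.101). miR-29b-3p, a repressor of collagen genes, rose in the SOC from 3.35, 1.76, 1.28 and 1.02 to 18.1, 5.28, 6.84 and 4.59 and had 0 counts in all cochlear P0 libraries. With 5.60 and 5.73 normalized CPM at E16, below what 3 counts per library at P0 are worth, no cochlear fold can be given for it. miR-301a-5p and miR-181b-2-3p were likewise at 0 in the cochlea at P0, with 7.65 to 28.3 and 6.70 to 68.4 normalized CPM in the SOC, and the cochlear fall was at least 1.16-fold and 1.57-fold. miR-29a-3p had at most 4 counts in any SOC library of these ages and was not tested.

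By edgeR's quasi-likelihood test, no member was called for the difference in the families or clusters of miR-15/16 (9 tested), miR-23/27/24 (6), miR-26 (5), miR-191 and miR-425 (4), miR-221 and miR-222 (3) and miR-204 and miR-211 (2), among the oligodendrocyte miRNAs (3) or for the 1 tested miRNA of the Hox clusters. Of these 33 miRNAs 5 had an unadjusted p under 0.05, and DESeq2 called 5, of which 3 were of miR-15/16, 1 of miR-23/27/24 and 1 of the Hox clusters, whereas limma called 0. With library totals 5 of the 9 in miR-15/16 were called, against 164 of all 516. In miR-15/16, whose members restrain the cell cycle, 0 fell in the SOC and 4 in the cochlea (6.59% and 17.1% of all did). In simulated counts the test called 13% of miRNAs with a 4-fold difference in change and 67% with an 8-fold one. A missing call therefore does not show an equal change.

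Among the 5 most abundant miRNAs only miR-125a-5p was called for the difference, and 16.1% of all tested miRNAs were. miR-99b-5p and miR-25-3p had differences of -0.70 ± 1.10 (FDR 0.651) and 1.49 ± 0.83 (FDR 0.202). miR-99b-5p had 68412, 368519.7, 343734 and 53370.0 normalized CPM in the SOC at E16 and 30913, 338535, 318495 and 74762 at P0, a spread that followed the SOC sets. In the cochlea it went from 7015 and 6365 to 9930.0, 9036, 11423 and 9277.

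The base composition of the miRNA went with its cochlear change. Mature sequences were found for 453 of the 516 miRNAs (87.8%). The median cochlear change was -2.92 in the 31 miRNAs with at most 35% GC, -0.71 in the 125 with over 45% to 50%, and 0.96 in the 92 with over 60%. The SOC medians of the same classes were -0.15, 0.06 and 0.32, a much smaller range. Across miRNAs, which are not independent replicates, Spearman's rho of GC content with the change was 0.53 in the cochlea, 0.11 in the SOC and -0.47 for the difference, and it was 0.49, 0.08 and -0.44 in the 320 miRNAs with no group at the floor.

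The miRNAs called higher in the SOC had a median GC content of 40.9%, those called lower 54.5% and all tested 50%. All 22 calls among the miRNAs with at most 40% GC were higher in the SOC. In 114 hairpins with both arms tested and of unequal GC content, the arm with more GC had the higher cochlear change in 72 and the higher SOC change in 55. Over all 114 pairs, its change minus that of the other arm had a median of 0.73 in the cochlea and -0.02 in the SOC. These are fitted folds, including those of arms at the floor in the cochlea at P0, such as miR-18a-5p. After adjustment for GC content, 13 of 48 calls with a higher change in the SOC and 19 of 28 calls with a lower change kept their call, 0 changed sign, and 14 other miRNAs were called. miR-205-5p (-7.37, FDR 0.000754), miR-206-3p (-7.56), miR-455-3p (-4.78), miR-214-3p (-4.34), miR-200c-3p (-5.65) and miR-182-5p (-3.08) kept theirs. miR-335-5p (1.49, FDR 0.145), miR-9-3p (0.87, FDR 0.372), miR-384-3p (0.84, FDR 0.432) and miR-21a-5p (0.93, FDR 0.299) lost theirs. So did miR-7a-1-3p (1.49, FDR 0.112), miR-136-3p (1.76, FDR 0.156), miR-34a-5p (2.00, FDR 0.112), miR-126a-3p (2.77, FDR 0.0509), miR-384-5p (1.64, FDR 0.0504), miR-351-5p (-2.10, FDR 0.0733), miR-423-5p (-1.92, FDR 0.0569), miR-193b-5p and miR-369-3p, and miR-301a-5p, miR-451a and miR-181b-2-3p, which were at 0 in the cochlea at P0. In all, 16 of the 32 named calls with a sequence were kept and 16 were lost. The part of base composition in the cochlear change was not tested beyond these values, and the adjustment would also remove a change of miRNA groups that share a GC content.

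**Figure D5:**
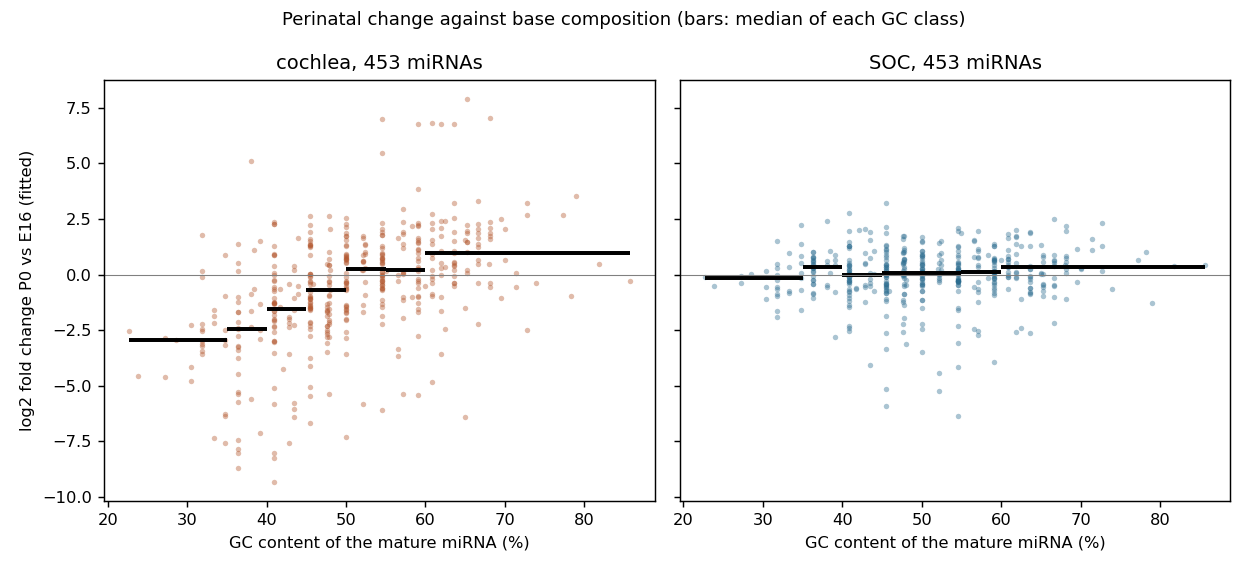
Fitted log2 fold change from E16 to P0 (y axis) against the GC content of the mature miRNA in percent (x axis) in the cochlea (left) and the SOC (right) for 453 miRNAs, with bars at the median of each GC class. The cochlear medians climb from -2.92 to 0.96, and the SOC medians stay between -0.15 and 0.35.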

How the data were processed

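Small RNA libraries of the cochlea and the SOC at E16 and P0 were compared. Per the study's methods, Bowtie was used to align reads to mouse miRNAs of MirGeneDB, and the submitters' processing notes name Bowtie2 2.2.5, DESeq2 and mm10. The deposited values are raw read counts per miRNA under miRBase names. The counting step, adapter trimming and the handling of reads that match several miRNAs are not given in the sources used here, so members of families that share sequence are uncertain. Replicates are pools of tissue from several animals.

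The counts of both organs were fitted together with edgeR 4.0.16 (R 4.3.3), with TMM factors and 1 mean per organ and age, and the quasi-likelihood F-test was applied to the interaction and to each organ. FDR is the Benjamini-Hochberg adjusted p over the 516 tested miRNAs, and SE is that of the fitted log2 value. Values by library are in replicate order. Cochlear libraries held 180671 to 447419 counts and SOC libraries 8915671 to 18053698. TMM factors were 3.24 and 3.51 in the cochlea at E16, 1.78 to 2.17 in the cochlea at P0, and 0.38 to 0.68 in the SOC. The cochlear factors of the 2 ages thus did not overlap. The reported fit called 48 miRNAs as rising and 88 as falling in the cochlea. Library totals gave 17 and 179, and limma on quantile-normalized values gave 113 and 89. No libraries were duplicates, since replicates differed beyond counting noise (chi-square per degree of freedom of at least 5.95). The scripts were tested on simulated data. A 4-fold difference in change, placed in the SOC libraries, was recovered in 26 of 200 miRNAs and an 8-fold one in 134 of 200.

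Same-numbered SOC libraries deviated together (r of 0.506, 0.435, 0.314 and 0.279), which was taken as pairing, a relation seen in the data and not given by the labels. E16 replicate 3 with P0 replicate 2 (0.486) and E16 replicate 2 with P0 replicate 3 (0.324) also deviated together, within 1 library set. In the cochlea the 2 possible pairs had r of 0.101 and -0.006. Alternatives used DESeq2 1.42.0, limma 3.58.1, other scalings, filters, blocks, thinned SOC counts, a GC-adjusted offset and the omission of each library. The 7 libraries of the third time point, P16, were fitted in only 1 alternative, and in another they entered the filter alone.

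Members and lists were chosen with earlier results of these data known. Named miRNAs were the 10 largest called differences in each direction with at least 100 normalized CPM in each organ, the 5 most abundant, those of the study's text, and the lowest FDR in each list with a call. Where another miRNA is named, it was chosen after its values were seen. Host genes come from GENCODE vM21.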

Additional observations from a re-analysis of the deposited data

Results flagged for a closer look

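The named miRNAs below changed differently in the 2 organs by the interaction test (edgeR's quasi-likelihood F-test, FDR under 0.05), and the log2 difference in change, SOC minus cochlea, follows each name. The change was lower in the SOC for miR-205-5p (-7.67), miR-206-3p (-6.68), miR-455-3p (-5.09), miR-214-3p (-4.67), miR-200c-3p (-4.45), miR-574-5p (-3.50), miR-193b-5p (-3.15), miR-574-3p (-3.14), miR-351-5p (-2.75), miR-183-3p (-2.58), miR-182-5p (-2.46), miR-503-3p (-2.34), miR-125a-5p (-2.29), miR-423-5p (-2.20) and let-7b-3p (-2.08). It was higher in the SOC for miR-30b-5p (2.00), miR-34a-5p (2.31), miR-467a-5p (2.33), miR-21a-5p (2.92), miR-7a-1-3p (3.17), miR-1983 (3.25), miR-126a-3p (3.65), miR-9-3p (3.76), miR-384-5p (3.97), miR-136-3p (3.99), miR-369-3p (4.07), miR-335-5p (4.23), miR-384-3p (4.52), miR-124-3p (5.06), miR-18a-5p (5.42), miR-153-3p (5.57), miR-301a-5p (7.57), miR-451a (7.84), miR-181b-2-3p (9.69) and miR-29b-3p (9.78). In the last 4 of these all cochlear P0 libraries were at 0, so the fitted value is no measure of size.

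Within groups of 4 libraries, 16 of 129 groups held 1 library far from the others by Dixon's test at the 5% level. The groups are of chosen miRNAs and share the same libraries, so they are not independent and their share of flags cannot be set against 5%. SOC P0 replicate 4 accounted for 6, more than any other library. It was high for miR-214-3p (355 normalized CPM), miR-574-5p (205), let-7b-5p (78.3), miR-25-3p (46427), miR-126a-3p (14064) and miR-124-3p (51219.6). SOC E16 replicate 1 was high for miR-126a-3p (3236), miR-30b-5p (3627), miR-381-3p (29426) and miR-136-3p (881). SOC P0 replicate 1 stood apart for miR-153-3p (2304) and miR-29b-3p (18.1), and SOC E16 replicate 3 for miR-193b-5p (3.19). In the cochlea, P0 replicate 1 stood apart for miR-182-5p (927) and miR-18a-5p (2.55, which is 1 count), and P0 replicate 4 for miR-335-5p (501.5).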

How the results depend on the processing

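Counts of calls moved both with the 2 cochlear libraries at E16 and with the SOC library sets, and the cause of the shifts below was not tested. In the fit with the SOC library set as a covariate (the set covariate below), SOC P0 replicate 4 had a term of its own. That library therefore did not enter the SOC change in this fit. The 83 calls became 164 with library totals, 125 with the SOC replicate block, 43 with a replicate block in both organs, 193 with the SOC library set as a covariate, 189 with SOC replicates 2 and 3 only, 137 with SOC replicates 1 and 4 but without P0 replicate 4, and 46 after GC adjustment. Leaving out 1 library gave 37 (without cochlear E16 replicate 1) to 140 (without SOC P0 replicate 4). The 54 higher calls became 83 with DESeq2, 153 with library totals, 26 with both blocks, 109 with the set covariate, 118 with replicates 2 and 3, 94 with replicates 1 and 4, 17 after GC adjustment and 29 with GC adjustment and the SOC replicate block, and 32 to 81 without 1 library. The 29 lower calls became 57 with limma, 11 with library totals, 17 with all 21 libraries, 19 with SOC counts thinned to cochlear depth, 55 with the SOC replicate block, 17 with both blocks, 84 with the set covariate, 71 with replicates 2 and 3, 50 with GC adjustment and the SOC block, 45 with the median change of each organ set to 0 and 67 with GC adjustment without SOC P0 replicate 4, and 5 to 59 without 1 library. The 62 SOC calls became 121 with DESeq2, 35 with thinned counts, 118 with the set covariate, 125 with replicates 2 and 3, 32 with replicates 1 and 4, and 40 to 76 without 1 library. The 136 cochlear calls became 88 with both blocks, 246 with the set covariate, 282 with replicates 2 and 3, 223 with replicates 1 and 4, 71 after GC adjustment, and 67 to 214 without 1 library. Among listed miRNAs 55 were called, against 94 with library totals, 26 with both blocks, 106 with the set covariate, 105 with replicates 2 and 3, 84 with replicates 1 and 4, 26 after GC adjustment, and 23 to 82 without 1 library.

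Among the named miRNAs, sign changes were found only in those not called. miR-99b-5p turned to 0.20 with library totals and 0.0712 with GC adjustment without SOC P0 replicate 4, and miR-25-3p to -0.0733 in the latter. miR-20a-5p turned to -0.0221 after GC adjustment and -0.0092 with the SOC block added. let-7b-5p turned to -0.44 with the SOC replicate block, -0.23 with both blocks, -1.19 with the set covariate, -1.43 with replicates 2 and 3, -0.52 with replicates 1 and 4, -0.38 after GC adjustment, -1.44 with GC adjustment and the SOC block, -2.31 with GC adjustment without SOC P0 replicate 4 and, without 1 library, ranged from -1.21 (SOC P0 replicate 4 left out) to 0.89. The GC, centring, sequence-only and replicate 1 and 4 settings were chosen after seeing the data. Over the named miRNAs, the other settings kept direction and call in 1046 values, lost the call in 119, gained it in 27 and turned the sign in 6.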

Other observations

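let-7a-5p, one of the most widely expressed let-7 members, had 1 to 81 counts in the SOC libraries of either age, and its difference in change was -1.81 ± 1.24 (FDR 0.297, edgeR, not called). How reads that match several let-7 members were counted is not given in the sources used here.

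The count-weighted GC content of the cochlear libraries was 49.2% to 49.4% at E16 and 51.2% to 51.4% at P0, with no overlap. In the SOC it was 49.6% to 51.8% at E16 and 47.9% to 52.8% at P0.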
